A study of Homo sapiens with 60 samples.

Results

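The genes described here are 10 genes of the lung alveolar lineage, chosen by name and present in both deposited tables, out of 19712 genes in all. They comprise 3 transcription factors (NKX2-1, FOXA1 and FOXA2), the homeodomain-only cofactor HOPX, 4 surfactant proteins (SFTPB, SFTPC, SFTPA1 and SFTPD), the surfactant-processing protease NAPSA and the water channel AQP5. The list itself holds names and no threshold on values, but it was drawn up with earlier results of these data known. RNA-seq was made from PC9, HCC827, H1975 and HCC2935, which are EGFR-mutant non-small cell lung cancer (NSCLC) lines, in 5 arms with 3 biological replicates each, 60 libraries in 20 groups. Parental cells of every line were kept without drug for 21 days and then given the solvent DMSO for 24 h (DMSO) or 500 nM osimertinib, an inhibitor of mutant EGFR, for 24 h (acute osimertinib). Drug-tolerant persisters (DTPs) were the cells left after 21 days in 500 nM osimertinib. In short washout the persisters had 24 h without drug, and in long washout 7 days (PC9), 4 days (HCC827), 3 days (H1975) or 10 days (HCC2935), so that line and washout length cannot be told apart in that arm. Each line is a tumour-derived culture and not alveolar tissue.

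As background, NKX2-1 is the master transcription factor of the lung epithelium and the usual clinical marker of lung adenocarcinoma, and FOXA1 and FOXA2 are pioneer factors that open chromatin beside it. Alveolar type 2 cells make surfactant, a lipid film that keeps the alveoli open. SFTPB and SFTPC are its hydrophobic proteins, SFTPA1 and SFTPD its collectins of innate defence, and NAPSA cleaves the SFTPB precursor. Alveolar type 1 cells form the thin gas-exchange surface, and AQP5 and HOPX are among the genes used to mark them.

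Libraries held 17.7 to 49.1 M estimated counts, with medians of 40.2 M in PC9, 19.7 M in HCC827, 42.9 M in H1975 and 21.6 M in HCC2935. Levels below are the deposited TPM values (a level per transcript length, scaled to the library), as the value in each library or as mean ± SD over n = 3. Fold changes are log2 values from the counts after TMM normalization (edgeR's scaling between libraries). A change was called at an adjusted p under 0.05 in edgeR's quasi-likelihood test with Benjamini-Hochberg adjustment over all genes tested in that comparison. The scales differ slightly, since the median gene above 1 TPM differed by 0.21 (log2 TPM) between PC9 DTPs and DMSO and by 0.14 between HCC2935 DTPs and DMSO, while the median fold change after TMM was 0.02 and 0.00. The keratins KRT8, KRT18 and KRT19, markers of epithelium, were at 394 TPM or more in every library. The epithelial markers EPCAM and CDH1 varied more. EPCAM had a median of 304 TPM and a lowest value of 18.1 TPM, and CDH1 201 and 1.28 TPM. Of the markers of other cell types, CD3E reached at most 0.246 TPM and PTPRC 3.48 TPM. The summed level of 5 fibroblast markers, mostly COL1A1, ran from 5.22 to 9.37 TPM in HCC827 DMSO and from 26 to 62.8 TPM in its DTPs, and in HCC2935 from 26.7 to 33.3 TPM and from 43.4 to 83.7 TPM. The summed level of 4 leukocyte markers, mostly CD68, went from 74.6 to 109 TPM in HCC2935 DMSO to 10 to 10.9 TPM in its DTPs, and that of 4 endothelial markers stayed at or below 22.4 TPM in every library. The highest fibroblast sums were in H1975 under acute osimertinib, 79.9 to 176 TPM against 20.9 to 49 TPM under DMSO, and in PC9 they were at most 18.4 TPM in DMSO, acute osimertinib and DTPs. The summed level of 5 epithelial markers had a median of 6738 TPM in HCC827 DMSO, 4925 in its acute arm and 3229 in its DTPs, and of 10066, 4966 and 7288 TPM in HCC2935. It was 2592, 3619 and 1873 TPM in H1975 and 6942, 12714 and 8040 TPM in PC9. The part of these shifts in the results was not tested. In bulk RNA, fewer cells expressing a gene and less RNA per cell cannot be told apart. Replicate 3 of PC9 long washout stood apart from the other replicates of its arm, with a mean squared difference of 77.2 and 137 times the counting error against 32.3 between the others. The same held for H1975 DMSO replicate 2 (84.2 and 51.4 against 20.1), HCC2935 long washout replicate 1 (49.4 and 39.3 against 22.5), HCC827 short washout replicate 1 (40.1 and 47.4 against 14.3) and, less so, HCC827 DTP replicate 1 (46.8 and 44.4 against 31). Values without them are given where a call was lost or gained or a change moved much.

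NKX2-1 and FOXA1 are the factors of the list with the highest levels, and HOPX and NAPSA had the largest changes in several lines, so promoter sequence of these 4 genes is shown. Promoters, from 250 bases before to 50 after an annotated start, were taken from RefSeq on GRCh38.p14. By symbol 8 of the 10 genes matched, with 12 promoters, and FOXA2 and SFTPC did not. The letters TGTTTAC or TGTTTGC, the core of FOXA binding motifs, and CTCAAG or CACTTG, cores used for NKX2-1, were searched on both strands. Capitals mark the matches, and a match on the opposite strand appears as its reverse complement. The NKX2-1 and HOPX stretches were shortened to limit annotated untranslated sequence, which still makes up 20 of the 133 bases shown for NKX2-1 and all 30 shown for HOPX, its match included.
NKX2-1, chr14:36519674-36519806, minus strand: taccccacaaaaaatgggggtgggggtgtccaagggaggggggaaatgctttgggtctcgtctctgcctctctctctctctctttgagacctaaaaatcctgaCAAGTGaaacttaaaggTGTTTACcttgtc
FOXA1, chr14:37595250-37595499, minus strand: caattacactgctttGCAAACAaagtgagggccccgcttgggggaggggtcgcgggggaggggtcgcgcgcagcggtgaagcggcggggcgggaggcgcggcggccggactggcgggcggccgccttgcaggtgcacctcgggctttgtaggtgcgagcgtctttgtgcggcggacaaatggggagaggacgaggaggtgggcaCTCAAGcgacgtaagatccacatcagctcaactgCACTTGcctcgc
HOPX, chr4:56681291-56681320, minus strand: agcaggctggcatcaGCAAACAcagcttcc
NAPSA, chr19:50369303-50369552, minus strand: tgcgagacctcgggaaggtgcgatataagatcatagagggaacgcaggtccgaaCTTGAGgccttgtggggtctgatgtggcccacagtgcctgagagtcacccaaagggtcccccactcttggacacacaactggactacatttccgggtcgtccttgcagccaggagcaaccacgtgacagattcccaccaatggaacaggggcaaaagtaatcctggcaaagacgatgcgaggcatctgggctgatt
The NKX2-1 stretch held CACTTG on the opposite strand at -147 and TGTTTAC at -130 from its start. The FOXA1 stretch, upstream of its start, held TGTTTGC on the opposite strand at -235, CTCAAG at -46 and CACTTG at -12. The HOPX site was TGTTTGC on the opposite strand at -9. The NAPSA stretch lies upstream of a distal start, inside an intron of the neighbouring gene NR1H2, and held CTCAAG on the opposite strand at -196. All stretches shown come from promoters with a match. The other NAPSA promoter, with its start at 50365639, and the other HOPX promoter, with its start at 56656517, held no match. The other NKX2-1 promoter held TGTTTGC and no NKX2-1 letters. The FOXA letters were in 5 of the 12 promoters and in 7.17% of 35116 promoters of the same length, and the NKX2-1 letters in 4 of the 12 and in 21.7%. No matches in these promoters shared a base. A match is a description of the letters and not a binding site.

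Under DMSO the lines ranked very differently for these genes, with HCC2935 at or near the top for every factor and PC9 nearly without NKX2-1 and NAPSA. Over the 6 pairs of lines, 30 of 42 tests of the listed genes were called, against 64.7% of tests of all genes. NKX2-1 (chromosome 14, 36516392 to 36521149) was at 116, 108 and 126 TPM in HCC2935, at 36.5, 35.9 and 47.5 in HCC827, at 20.1, 12.4 and 16.6 in H1975 and at 0.548, 0.411 and 0.341 in PC9. No groups overlapped, and each of the 6 pairs was called. The neighbours HCC2935 and HCC827 differed by 1.27 on the log2 scale (SE 0.17, adjusted p = 2e-05), and PC9 stood below H1975 (log2 fold change of -4.97, SE 0.24, adjusted p = 1.2e-09).

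FOXA1 (chromosome 14, 37589984 to 37596059) was at 102 ± 3.89 TPM in HCC2935, 27.7 ± 2.07 in PC9 and 27.5 ± 4.81 in HCC827, but at 0.238, 0.234 and 0.161 TPM in H1975, where a library held 13 to 21 counts. PC9 and HCC827 did not differ beyond their spread (log2 fold change of 0.15, SE 0.13, adjusted p = 0.299), and H1975 was below HCC827 by 7.12 on the log2 scale (SE 0.19, adjusted p = 9.54e-12 for HCC827 against H1975). FOXA2 (chromosome 20, 22581005 to 22585455) had another order. It was at 7.54, 5.98 and 5.56 TPM in HCC2935 and at 7.49, 4.23 and 6.75 TPM in H1975, which overlapped (log2 difference 0.10, SE 0.30, adjusted p = 0.792 for H1975 against HCC2935). HCC827 was lower, at 1.99 ± 0.554 TPM, and PC9 held 13 counts in 3 libraries, at 0.0593 ± 0.0375 TPM. H1975 thus had FOXA2 with almost no FOXA1, and PC9 had FOXA1 with almost no FOXA2.

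HOPX (chromosome 4, 56647988 to 56681899) was at 49.3, 49.3 and 26.5 TPM in HCC2935 and under 1 TPM in every library of the other lines. Those lines were at 0.515 ± 0.187 (PC9), 0.327 ± 0.0753 (H1975) and 0.228 ± 0.122 TPM (HCC827), and the difference of PC9 from HCC827 (log2 fold change of 1.33, SE 0.52, adjusted p = 0.0364) was lost in limma on log2(TPM + 1) (0.23), in 1 fit of all 60 libraries (0.125) and without PC9 replicate 2 or 3 or HCC827 replicate 2 or 3 (0.0587 to 0.154). NAPSA (chromosome 19, 50358477 to 50365830) followed the order of NKX2-1. It was at 245, 236 and 202 TPM in HCC2935, at 47.9, 27.9 and 76.3 in HCC827, at 1.45, 1.6 and 1.27 in H1975 and at 0.264, 0.466 and 0.3 in PC9, with every pair called.

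The surfactant proteins themselves were close to absent. SFTPD (chromosome 10, 79937740 to 79982614) was at 0.484 ± 0.171 TPM in PC9 and 0.501 ± 0.287 TPM in HCC2935, which overlapped (adjusted p = 0.681), at 4 counts in 3 libraries of H1975 and at 0 counts in HCC827. Against a floor of 3 counts over the group, which a count of 0 allows, SFTPD was 8.06-fold higher in PC9 and 7.22-fold higher in HCC2935 than in HCC827. These folds take the other count as exact and are not lower limits. SFTPB (chromosome 2, 85657314 to 85668741) reached at most 1.15 TPM in any DMSO library and no pair of lines was called. SFTPC (chromosome 8, 22156913 to 22164479) and SFTPA1 (chromosome 10, 79610939 to 79615455) had 0 to 7 counts per line. AQP5 (chromosome 12, 49961870 to 49965681) had 2 counts in H1975, 6 in HCC827, 7 in HCC2935 and 30 in PC9, over 3 libraries each. Coordinates are those of GENCODE release 29 on GRCh38.

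**Figure D1:**
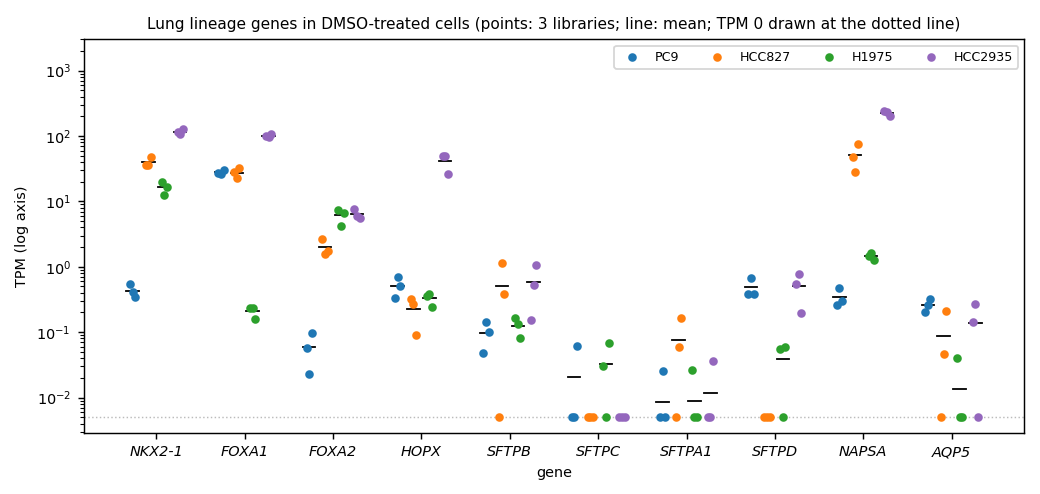
TPM (log axis) of the 10 genes in DMSO-treated cells, with 1 point per library, coloured by line, and a bar at the mean of 3 libraries; values of 0 sit on the dotted line. NKX2-1 runs from 0.433 TPM in PC9 to 117 TPM in HCC2935, FOXA1 is low in H1975, and SFTPB, SFTPC, SFTPA1, SFTPD and AQP5 lie near or under 1 TPM in all lines.

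Under acute osimertinib most tests of the listed genes were called higher, and FOXA2 alone was called lower, in H1975 and HCC2935. Tested but not called were NKX2-1 and FOXA1 in PC9, FOXA2 in HCC827, FOXA1 and SFTPB in H1975, and HOPX and SFTPB in HCC2935. Over the 4 lines, 16 of 23 tests were called, against 50.7% of tests of all genes, and 14 of the 16 were higher. By line, 3 of 5 genes were called in PC9 (68.5% of all genes), 4 of 5 in HCC827 (42.3%), 4 of 6 in H1975 (44.9%) and 5 of 7 in HCC2935 (47.1%). Higher calls were 3 in PC9, 4 in HCC827, 3 in H1975 and 4 in HCC2935, where 34.4%, 20.2%, 21.2% and 22% of all genes were higher. Lower calls were 0, 0, 1 and 1, where 34.1%, 22.1%, 23.7% and 25.1% of all genes were lower. At an adjusted p under 0.01, 8 of the 23 tests over the 4 lines were called, against 19994 of 56620 tests of all genes. The genes left out of these tests had too few counts. Among the higher calls, HOPX in HCC827 and SFTPD in HCC2935 passed the filter on low counts through the acute libraries. In DTPs the lines parted. There 13 of 26 tests were called, 6 higher and 7 lower, against 51.6% of tests of all genes, with 5 of 6 in PC9 (71.3% of all genes), 3 of 6 in HCC827 (36.7%), 2 of 7 in H1975 (45.7%) and 3 of 7 in HCC2935 (52.5%). Higher calls were 4, 1, 1 and 0 in PC9, HCC827, H1975 and HCC2935, where 35.4%, 19.4%, 22.4% and 25.3% of all genes were higher. Lower calls were 1, 2, 1 and 3, where 35.9%, 17.2%, 23.4% and 27.2% were lower. Among the higher calls in DTPs, HOPX in HCC827 and SFTPC in H1975 passed the filter through the DTP libraries. Both comparisons, acute osimertinib and DTPs against DMSO, share the DMSO libraries.

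DTPs against acute osimertinib compares the cells left after 21 days of drug with parental cells after 24 h. Length of exposure and survival of cells cannot be told apart there. Of 25 tests, 12 were called, 10 of them lower in DTPs, against 34.4% of tests of all genes. By line these were 2 of 6 genes in PC9 (39.8% of all genes), 4 of 5 in HCC827 (29.5%), 2 of 7 in H1975 (26.2%) and 4 of 7 in HCC2935 (42.4%). Lower calls were 1, 4, 2 and 3 in the same order, where 20.6%, 13.8%, 14.9% and 20.4% of all genes were lower, and higher calls 1, 0, 0 and 1, where 19.2%, 15.7%, 11.2% and 22% were higher. The plot of fold changes from DMSO shows the 2 drug arms and long washout side by side.

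**Figure D2:**
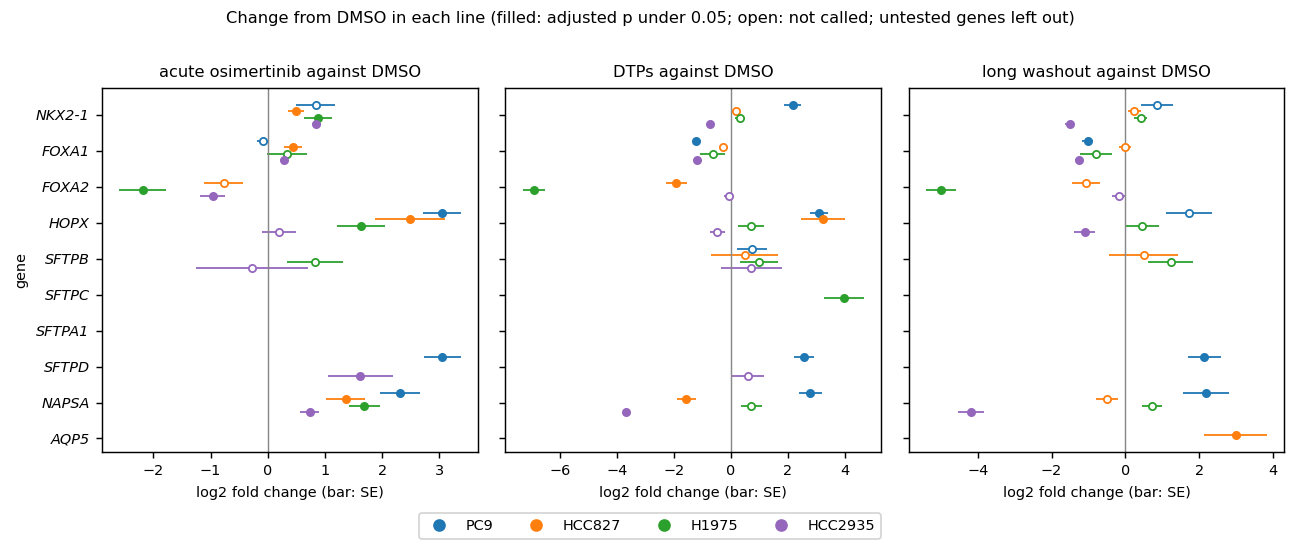
Log2 fold change from DMSO (horizontal axis, bar: SE) of each gene in acute osimertinib, DTPs and long washout, coloured by line; filled points were called at an adjusted p under 0.05, and genes with too few counts have no point. NAPSA is right of 0 in all lines under acute osimertinib, while in DTPs it spans 2.78 in PC9 to -3.67 in HCC2935, and FOXA2 in H1975 DTPs lies at -6.92.

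NKX2-1 was higher after 24 h of osimertinib in every line by its mean, with no overlap with DMSO. In DTPs it was higher than in the acute arm in PC9 but lay below DMSO in HCC2935. In HCC2935 the acute values were 210, 205 and 222 TPM against 116, 108 and 126 TPM under DMSO (log2 fold change of 0.85, SE 0.08, adjusted p = 2.95e-05). HCC827 went from 39.9 ± 6.54 to 59.1 ± 5.1 TPM (0.49, SE 0.14, adjusted p = 0.0179) and H1975 from 16.4 ± 3.85 to 30.7 ± 9.85 TPM (0.88, SE 0.25, adjusted p = 0.0254). The HCC827 call was lost without DMSO replicate 1 (0.0645) or acute replicate 2 (0.0732), and that in H1975 without any of 4 of its 6 libraries, DMSO replicates 2 and 3 and acute replicates 2 and 3, with adjusted p from 0.0633 to 0.0789. PC9 was at 0.637, 0.873 and 0.826 TPM against 0.548, 0.411 and 0.341 TPM, which did not pass the test (0.84, SE 0.34, adjusted p = 0.0509) and did pass it in 5 of 9 alternative settings.

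In DTPs of PC9, NKX2-1 reached 1.98, 2.11 and 2.96 TPM, above both DMSO (log2 fold change of 2.17, SE 0.30, adjusted p = 0.000124) and acute osimertinib (1.33, SE 0.26, adjusted p = 0.00447). Even so it stayed under the lowest value of any other line. In HCC2935 DTPs it was at 81.9, 82.9 and 74.5 TPM, lower than under DMSO by 0.72 on the log2 scale (log2 fold change of -0.72, SE 0.09, adjusted p = 0.00016) and lower than in the acute arm (-1.58, SE 0.09, adjusted p = 1.83e-06). HCC827 DTPs (51.4, 44 and 42.4 TPM) and H1975 DTPs (20.6, 20.1 and 19.6 TPM) overlapped with DMSO and were not called against it (adjusted p = 0.394 and 0.189). Both were below their acute arms, by -0.37 (SE 0.10, adjusted p = 0.0291) and -0.63 (SE 0.20, adjusted p = 0.0494) on the log2 scale. Neither of these last calls was kept under the replicate block (0.0519 and 0.0569), nor with several single libraries left out. Those libraries were acute replicates 1 and 2 and DTP replicates 2 and 3 in HCC827 (0.0722 to 0.103), and acute replicates 2 and 3 and every DTP replicate in H1975 (0.104 to 0.138).

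FOXA1 rose slightly in 24 h in HCC827 and HCC2935 and fell in DTPs of PC9 and HCC2935. In PC9 it stood at 27.1, 26 and 30 TPM under DMSO and 27.8, 22.1 and 28.2 TPM in the acute arm, which overlapped, and at 16, 13.2 and 14 TPM in DTPs (log2 fold change of -1.21 against DMSO, SE 0.10, adjusted p = 3.74e-06). In HCC2935 it went from 102 ± 3.89 TPM to 124 ± 5.2 TPM in the acute arm (0.28, SE 0.07, adjusted p = 0.0126) and to 50.8 ± 2.65 TPM in DTPs (-1.18, SE 0.08, adjusted p = 7.76e-06). The acute rise in HCC2935 was small and was not called in 1 fit of all 60 libraries (0.166) or without DMSO replicate 1 (0.0533) or 2 (0.055). Same-numbered replicates deviated together in that comparison, and under the replicate block the rise was called (0.00791). HCC827 had an acute rise from 27.5 ± 4.81 to 39.4 ± 4.59 TPM (0.44, SE 0.15, adjusted p = 0.0354), which was lost under the replicate block (0.0603) and without any of 4 libraries, DMSO replicates 1 and 2 and acute replicates 2 and 3 (0.0626 to 0.122). Its DTPs, at 23.4 ± 1.88 TPM, were below the acute arm (-0.75, SE 0.10, adjusted p = 0.00217) and overlapped with DMSO. H1975 stayed between 0.0554 and 0.399 TPM in all 5 arms and no comparison with another arm was called. TTC6, which overlaps FOXA1 on the opposite strand, had group means of at most 7.93 TPM.

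FOXA2 was lower under 24 h of osimertinib in H1975 and HCC2935 and lower in DTPs of H1975 and HCC827. In H1975 it dropped from 7.49, 4.23 and 6.75 TPM under DMSO to 0.741, 1.18 and 2.27 TPM in the acute arm (log2 fold change of -2.18, SE 0.41, adjusted p = 0.00452). Its DTPs were at 0.0382, 0.0454 and 0.0659 TPM, 12 counts against 1516, which is a ratio of 0.00782 (95% interval from counting error alone 0.00403 to 0.0137; log2 fold change of -6.92, SE 0.39, adjusted p = 3.61e-05). No other listed gene changed as much in any comparison within a line. HCC827 went from 1.99 ± 0.554 TPM to 1.21 ± 0.3 TPM in the acute arm, which did not pass (-0.77, SE 0.34, adjusted p = 0.1), and to 0.544 ± 0.055 TPM in DTPs (-1.91, SE 0.38, adjusted p = 0.00503). The step from acute to DTPs in HCC827 (-1.19, SE 0.37, adjusted p = 0.0449) was lost without each of the 6 libraries in turn and in 3 alternative settings, the replicate block (0.087) among them. In PC9 the 13 counts of the DMSO libraries were followed by 0 counts in the acute arm and in DTPs. Set against the floor of 3 counts over the group, these arms were 4.42-fold and 4.23-fold lower. HCC2935 differed. FOXA2 there was at 3.71, 3.34 and 2.78 TPM in the acute arm against 7.54, 5.98 and 5.56 TPM (-0.96, SE 0.22, adjusted p = 0.00537), and DTPs were back at 6.74, 6.79 and 6.97 TPM, above the acute arm (0.88, SE 0.21, adjusted p = 0.00649) and overlapping with DMSO.

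HOPX rose in the 3 lines where it started below 1 TPM and not in HCC2935, where it was high from the start. PC9 went from 0.328, 0.703 and 0.515 TPM to 3.79, 5.12 and 4.11 TPM in the acute arm (log2 fold change of 3.05, SE 0.33, adjusted p = 3.81e-05) and 5.38, 5.84 and 4.96 TPM in DTPs (3.09, SE 0.31, adjusted p = 1.14e-05). HCC827 went from 13 counts under DMSO to 75 in the acute arm (2.49, SE 0.61, adjusted p = 0.0101) and 120 in DTPs (3.23, SE 0.77, adjusted p = 0.0113). HOPX passed the filter in these HCC827 comparisons through the treated libraries, with 2 to 6 counts in each DMSO library. The DTP values of HCC827 were wide, 4.51, 1.55 and 0.778 TPM, with the high value in the replicate that stood apart, and the change was 2.33 (SE 0.70, adjusted p = 0.032) without it. The acute call in HCC827 was lost without acute replicate 2 (0.0532). H1975 rose in the acute arm, from 0.327 ± 0.0753 to 1.05 ± 0.387 TPM (1.63, SE 0.42, adjusted p = 0.016), a call lost under the replicate block (0.0534) and without DMSO replicate 3 (0.0685) or acute replicate 2 (0.0615), and its DTPs overlapped with DMSO (0.70, SE 0.46, adjusted p = 0.248). In HCC2935 HOPX was at 48.8, 63 and 31.7 TPM in the acute arm and 45.8, 30.9 and 25.6 TPM in DTPs, both overlapping with 49.3, 49.3 and 26.5 TPM under DMSO.

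NAPSA rose in the acute arm of all 4 lines, and in DTPs it was above DMSO in PC9 and far below it in HCC827 and HCC2935. The acute values were 417, 421 and 295 TPM in HCC2935 against 245, 236 and 202 TPM (log2 fold change of 0.73, SE 0.16, adjusted p = 0.00533), and 101, 184 and 130 TPM in HCC827 against 47.9, 27.9 and 76.3 TPM (1.36, SE 0.34, adjusted p = 0.0103). H1975 went from 1.44 ± 0.166 to 4.74 ± 1.41 TPM (1.69, SE 0.27, adjusted p = 0.002) and PC9 from 0.343 ± 0.108 to 1.69 ± 0.214 TPM (2.31, SE 0.35, adjusted p = 0.000316). The HCC2935 rise was not called in 1 fit of all 60 libraries (0.0617) and was called under the replicate block (0.000175). In DTPs of HCC2935 NAPSA was at 21.8, 21.1 and 17.6 TPM, lower than DMSO by more than any other listed gene of that line (-3.67, SE 0.13, adjusted p = 3.21e-07). HCC827 DTPs, at 23.6, 14.6 and 14.8 TPM, were also lower (-1.56, SE 0.34, adjusted p = 0.00778), and PC9 DTPs, at 1.75, 3.9 and 2.87 TPM, were higher (2.78, SE 0.40, adjusted p = 0.000158). H1975 DTPs overlapped with DMSO (0.72, SE 0.37, adjusted p = 0.148). Against the acute arm NAPSA fell by 4.41 on the log2 scale in HCC2935 DTPs (SE 0.19, adjusted p = 5.62e-07) and by 2.98 in HCC827 DTPs (SE 0.25, adjusted p = 0.000487).

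NAPSA and NR1H2 overlap on opposite strands, and whether reads were counted by strand is not given in the sources used here, so their reads could be mixed. NR1H2, which encodes a nuclear receptor for oxysterols, was at 41.7 ± 1.82 TPM under DMSO, 62.4 ± 7 TPM in the acute arm and 41.8 ± 0.675 TPM in DTPs of HCC2935. In PC9 it ran from 61.5 ± 1.24 TPM under DMSO to 114 ± 5.49 TPM in DTPs, where NAPSA held 60 to 154 counts per library. The part of NR1H2 reads in the low NAPSA values of PC9 was not tested.

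**Figure D3:**
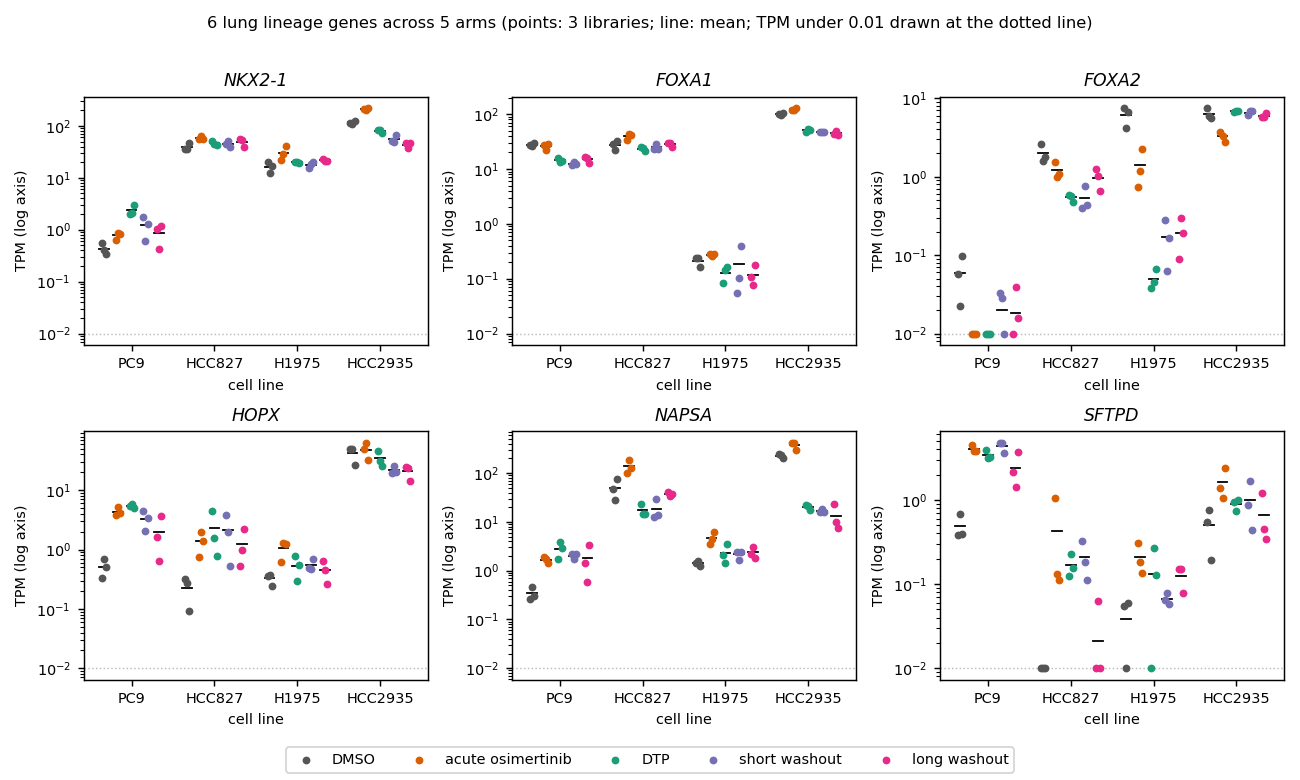
TPM (log axis) of 6 genes in each line, with 1 point per library coloured by arm and a bar at the mean of 3 libraries; values under 0.01 TPM sit on the dotted line. NKX2-1 peaks in the acute arm in HCC827, H1975 and HCC2935 and in DTPs in PC9, and FOXA2 in H1975 falls from 6.16 TPM to 0.0498 TPM in DTPs.

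Of the surfactant proteins SFTPD and SFTPC had calls within a line. SFTPD, a collectin, was called in PC9 and HCC2935. In PC9 it went from 0.38, 0.681 and 0.39 TPM to 4.55, 3.78 and 3.84 TPM in the acute arm (log2 fold change of 3.05, SE 0.32, adjusted p = 3.37e-05) and 3.94, 3.17 and 3.24 TPM in DTPs (2.55, SE 0.35, adjusted p = 9.84e-05), without overlap. In HCC2935 it was at 1.39, 1.05 and 2.42 TPM in the acute arm against 0.545, 0.763 and 0.195 TPM (1.62, SE 0.56, adjusted p = 0.0391). That call was lost under the replicate block (0.0684), in DESeq2 (0.0561), without a filter (0.0675) and without any of 5 of the 6 libraries, all but acute replicate 2 (0.0569 to 0.155). SFTPD passed the filter in this HCC2935 comparison through the acute libraries, with 3 to 10 counts in each DMSO library. HCC827 had 0 counts under DMSO and 18 in the acute arm, 6.51-fold higher against the floor, though 14 of the 18 were in replicate 1.

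SFTPC had 0 counts in 27 of the 60 libraries. It was tested in H1975 alone, where it passed the filter on low counts through the DTP libraries, so that a test was made only where it was high. There DTPs were at 0.655, 0.651 and 0.659 TPM, 12 to 13 counts per library, against 0.0299, 0 and 0.0671 TPM under DMSO (log2 fold change of 3.98, SE 0.70, adjusted p = 0.00208). As counts, 37 against 2 is a ratio of 18.3 (95% interval 4.71 to 157). Its highest value, 1.87 TPM, came from acute replicate 3 of HCC2935, with 14 counts, while the other 2 replicates held 0. LGI3, on the opposite strand over SFTPC, was at 0.0132 ± 0.0152 TPM in H1975 DTPs.

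SFTPB, the protein that NAPSA helps to mature, was not called in any of the comparisons. Its replicates were far apart, as in HCC2935 DTPs, with 91, 2 and 10 counts, and HCC827 DTPs, with 5, 11 and 67 counts. The median over all libraries was 0.172 TPM. SFTPA1 could not be tested in any comparison, since 30 libraries had no count and 2 had 10 or more. Its largest value, 1.41 TPM with 37 counts, was in replicate 2 of HCC827 long washout. SFTPA1 has a near-identical neighbour, SFTPA2, and how reads were split between them is not stated, so its values are uncertain. SFTPA2 was at 2.95, 3.12 and 3.35 TPM in HCC827 under acute osimertinib against 0.106, 0 and 0.843 TPM under DMSO.

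AQP5 had enough counts for a test within a line in HCC827 alone. It passed the filter there through the long-washout libraries, in which it was high, and was not tested in the other arms against DMSO. Under DMSO it held 0, 1 and 5 counts and in long washout 10, 14 and 21 (log2 fold change of 2.98, SE 0.86, adjusted p = 0.0211). The call was lost without DMSO replicate 1 or 2 or long-washout replicate 2 or 3 (0.0552 to 0.0698). The acute arm of HCC827 had 35 counts against 6 under DMSO, a ratio of 6.32 (95% interval 2.63 to 18.4), with 1, 25 and 10 per library. Its DTPs had 20 counts, a ratio to DMSO of 3.5 (1.36 to 10.7), with 12, 3 and 5 per library. In HCC2935 AQP5 had 42 counts in the acute arm and 7 under DMSO, a ratio of 6.52 (95% interval 2.9 to 17.2), with 21, 18 and 3 counts per library. In PC9 the acute arm had 6 counts against 30, a ratio of 0.196 (0.0667 to 0.479). These intervals cover counting error only.

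In short washout, 24 h after the drug was removed, edgeR called none of 25 tests against DTPs and 6.48% of tests of all genes. By line the share of all genes was 22.2% in PC9 (12.1% higher, 10.1% lower) and 3.52% in HCC2935 (2.47% higher, 1.04% lower). DESeq2 called 4 of the tests of listed genes. Over all genes it called 5361, where edgeR called 3724 of 57505. In HCC827 and H1975 edgeR called 0 genes in all, with 197 and 1950 genes at an unadjusted p under 0.05 and 0 and 399 genes called by DESeq2. Same-numbered replicates of these arms deviated together in both lines, and with the replicate block 2 genes were called in HCC827 and 1697 in H1975, none of them a listed gene. The lowest adjusted p of the listed genes was that of NKX2-1 in HCC2935, with 52.3, 48.7 and 66.8 TPM against 81.9, 82.9 and 74.5 TPM in DTPs (log2 fold change of -0.50, SE 0.12, adjusted p = 0.0547). It passed in DESeq2 (0.00367), in 3 other settings and without short-washout replicate 3 (0.0465). NKX2-1 in PC9 was at 1.75, 0.617 and 1.29 TPM (-0.96, SE 0.35, adjusted p = 0.0806) and HOPX in PC9 at 4.48, 2.03 and 3.39 TPM (-0.71, SE 0.26, adjusted p = 0.083). Both passed in DESeq2 (0.0394 and 0.0475) and without short-washout replicate 1 (0.0459 and 0.0379). HOPX in HCC2935 was at 19.6, 25.1 and 20.1 TPM against 45.8, 30.9 and 25.6 TPM in DTPs, without overlap (-0.65, SE 0.21, adjusted p = 0.133, and 0.0396 in DESeq2). These 4 results are the ones that DESeq2 called. SFTPB in HCC2935 had 12 counts against 104, with 91 of the latter in 1 library (-2.81, SE 1.24, adjusted p = 0.245). FOXA2 in H1975 was not tested and had 40 counts against 12, a ratio of 3.35 (95% interval from counting error alone 1.72 to 7.01).

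Relative to DTPs, NKX2-1 was lower after long washout in PC9 and HCC2935, and no other listed gene passed the test. Of 25 tests 2 were called, both lower, against 5.63% of tests of all genes, 17.3% in PC9 (11.8% higher, 5.47% lower) and 5.16% in HCC2935 (2.99% higher, 2.17% lower). NKX2-1 was at 1.05, 0.433 and 1.16 TPM in PC9 against 1.98, 2.11 and 2.96 TPM in DTPs (log2 fold change of -1.33, SE 0.37, adjusted p = 0.0468). In HCC2935 it was at 46.8, 37 and 47.2 TPM against 81.9, 82.9 and 74.5 TPM (-0.83, SE 0.12, adjusted p = 0.0189). The PC9 call was lost in limma on the deposited log2 TPM (0.053) and without any of 5 of its 6 libraries, all but long-washout replicate 3 (0.0877 to 0.154). The HCC2935 call was lost under the replicate block (0.0556) and without 4 of its 6 libraries, long-washout replicates 2 and 3 and DTP replicates 1 and 2 (0.0627 to 0.0746). Without the PC9 long-washout replicate that stood apart, HOPX in PC9 passed as well (-2.15, SE 0.38, adjusted p = 0.00241, against -1.39, SE 0.51, adjusted p = 0.0855 with it), since that replicate was at 3.69 TPM and the others at 1.61 and 0.637 TPM. HCC827 (0% of all genes) and H1975 (0.0136%, 2 genes, with 660 at an unadjusted p under 0.05) had no listed gene called. In HCC827 NAPSA was at 40.4, 34.4 and 38.1 TPM in long washout and at 23.6, 14.6 and 14.8 TPM in DTPs, without overlap (1.08, SE 0.19, adjusted p = 0.893), a comparison in which edgeR called 0 of 14053 genes, 434 had an unadjusted p under 0.05 and DESeq2 called 7, NAPSA among them (0.00059).

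Against DMSO, long washout still differed for 9 of 22 tests, 3 higher and 6 lower, against 41.5% of tests of all genes. By line these were 3 of 5 in PC9 (30.6% of all genes), 1 of 6 in HCC827 (39.7%), 1 of 6 in H1975 (55%) and 4 of 5 in HCC2935 (39.9%). Of all genes 15.9% were higher and 14.7% lower in PC9, 19.7% and 19.9% in HCC827, 26.8% and 28.2% in H1975, and 21% and 18.9% in HCC2935. In HCC2935 the 4 calls were NKX2-1, FOXA1, HOPX and NAPSA, all lower, while FOXA2 was at 5.99 ± 0.509 against 6.36 ± 1.04 TPM (log2 fold change of -0.18, SE 0.19, adjusted p = 0.495). Its NKX2-1 was at 43.6 ± 5.78 TPM against 117 ± 8.6 TPM (log2 fold change of -1.51, SE 0.12, adjusted p = 1.92e-05), FOXA1 at 45.1 ± 3.49 against 102 ± 3.89 TPM (-1.26, SE 0.10, adjusted p = 1.48e-05), HOPX at 20.9 ± 5.92 against 41.7 ± 13.2 TPM (-1.10, SE 0.28, adjusted p = 0.0109) and NAPSA at 13.4 ± 8.29 against 228 ± 22.4 TPM (-4.18, SE 0.34, adjusted p = 2.22e-05).

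In H1975 FOXA2 remained low after 3 days, at 0.0886, 0.299 and 0.191 TPM (log2 fold change of -5.00, SE 0.41, adjusted p = 4.48e-05). In PC9 FOXA1 was lower, at 16.6, 15.9 and 12.9 TPM (-1.02, SE 0.15, adjusted p = 0.00399), and SFTPD higher, at 2.15, 1.43 and 3.66 TPM (2.13, SE 0.45, adjusted p = 0.0127). The SFTPD call was lost without DMSO replicate 1 (0.0554) or 3 (0.0626). NAPSA in PC9 was at 1.41, 0.582 and 3.37 TPM (2.19, SE 0.62, adjusted p = 0.0314), with its highest value in the replicate that stood apart. Without it the change was 1.42 (SE 0.54, adjusted p = 0.0785), and it was lost as well under the replicate block (0.0808), in limma on log2(TPM + 1) (0.068) and without any DMSO replicate or long-washout replicate 1 (0.0652 to 0.111). AQP5 in HCC827 was the remaining call.

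Whether the lines differed in their response was tested directly, by edgeR's test of the interaction of line and treatment. For acute osimertinib 3 of 8 genes were called, against 40.5% of all genes. These were HOPX (adjusted p = 0.00087), FOXA2 (adjusted p = 0.0234) and FOXA1 (adjusted p = 0.0474), the last of which was lost in 3 settings and without any of 17 of the 24 libraries. For DTPs 5 of 7 were called, against 61.6% of all genes: FOXA2 (adjusted p = 1.35e-08), NAPSA (2.78e-08), NKX2-1 (3.15e-07), HOPX (9.04e-05) and FOXA1 (0.000267). NKX2-1 was not called as differing between lines in the acute arm (adjusted p = 0.421), nor NAPSA (0.081). For long washout against DTPs 1 of 8 was called, NKX2-1 (adjusted p = 0.0154), against 7.34% of all genes, and it was lost under the replicate block (0.0545). Line and washout length cannot be told apart there. Without the PC9 long-washout replicate that stood apart, NAPSA (0.0221, against 0.168 with it) and FOXA2 (0.034, against 0.0575) were called in that test too.

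Other genes of the alveoli moved in both directions, line by line, as the plot for DTPs shows. Of 12 other type 2 genes, 6 of 6 tested were called under acute osimertinib in PC9 (2 higher, 4 lower), 8 of 10 in HCC827 (7 higher), 5 of 8 in H1975 (3 higher) and 8 of 10 in HCC2935 (6 higher). In DTPs 5 of 7 (2 higher), 5 of 10 (3 higher), 5 of 9 (4 higher) and 8 of 10 (4 higher) were called in the same order of lines. Of all genes, 68.5%, 42.3%, 44.9% and 47.1% were called in the acute arm and 71.3%, 36.7%, 45.7% and 52.5% in DTPs. Higher calls made up 34.4%, 20.2%, 21.2% and 22% of all genes in the acute arm and 35.4%, 19.4%, 22.4% and 25.3% in DTPs. The median log2 fold change of these type 2 genes in DTPs was 0.26, 0.62, 0.53 and -0.10, against 0.02, 0.02, 0.01 and 0.00 over all genes tested. CTSH, a cathepsin that takes part in surfactant protein maturation, rose in the acute arm by 2.30 in PC9, 1.79 in HCC827, 2.21 in H1975 and 0.83 in HCC2935 (log2, adjusted p from 1.37e-06 to 0.00511), and in DTPs in all lines but H1975 (-0.01, adjusted p = 0.976). In HCC2935 DTPs CTSH was at 1573 TPM on average while NAPSA, the other processing protease, was at 20.2 TPM. ABCA3, the lipid transporter of lamellar bodies, rose in DTPs of HCC827 (2.02), H1975 (0.99) and HCC2935 (2.14) and fell in PC9 (-0.24, adjusted p = 0.0453). LPCAT1, which makes surfactant phospholipid, changed by 0.92 at most in either direction among these 2 arms. MFSD2A, a lipid carrier, fell in the acute arm of every line, with log2 fold changes of -4.53, -1.74, -3.40 and -2.22 in PC9, HCC827, H1975 and HCC2935.

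**Figure D4:**
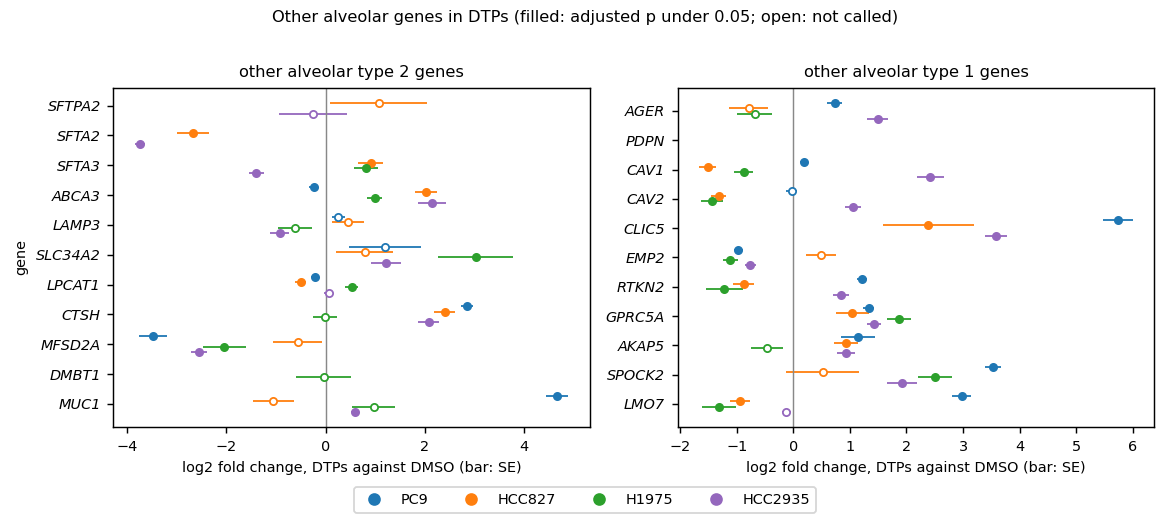
Log2 fold change of DTPs against DMSO (horizontal axis, bar: SE) for the other alveolar type 2 genes (left) and type 1 genes (right), coloured by line; filled points were called at an adjusted p under 0.05, and genes with too few counts have no point. CTSH lies at 2.08 to 2.86 in 3 lines and at -0.01 in H1975, and GPRC5A is right of 0 in all lines.

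Of 11 other type 1 genes, 9 of 10 were called in DTPs of PC9 (8 higher), 7 of 10 in HCC827 (3 higher, 4 lower), 7 of 9 in H1975 (2 higher, 5 lower) and 9 of 10 in HCC2935 (8 higher), with medians of 1.17, -0.15, -0.88 and 1.24. In the acute arm 9 of 10, 7 of 10, 5 of 9 and 3 of 10 were called, with medians of 0.77, -0.20, 0.15 and 0.17. Of all genes, 71.3%, 36.7%, 45.7% and 52.5% were called in DTPs and 68.5%, 42.3%, 44.9% and 47.1% in the acute arm. GPRC5A, a membrane receptor of the alveolar epithelium, rose in DTPs of all 4 lines, by 1.33, 1.04, 1.87 and 1.43. CAV1, the coat protein of caveolae, rose in HCC2935 (2.42) and PC9 (0.19) and fell in HCC827 (-1.51) and H1975 (-0.88). LMO7 rose in PC9 (2.98) and fell in HCC827 (-0.94) and H1975 (-1.31), and EMP2 fell in PC9 (-0.97), H1975 (-1.11) and HCC2935 (-0.76). VEGFA was not analysed here.

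Of 12 other factors of the lung epithelium, 8 of 10, 5 of 12, 5 of 12 and 7 of 12 were called in the acute arm and 8 of 11, 5 of 12, 7 of 12 and 10 of 12 in DTPs, in the order PC9, HCC827, H1975, HCC2935. For these and the lists below, the shares of all genes called were 68.5%, 42.3%, 44.9% and 47.1% in the acute arm. In DTPs they were 71.3%, 36.7%, 45.7% and 52.5%. Counts such as 5 of 12 in the acute arm of HCC827 and H1975 lie near these shares. ETV5, an ETS factor downstream of FGF and ERK signals, fell in both arms of all lines, with log2 fold changes of -4.67, -3.33, -3.01 and -3.88 in the acute arm. ELF3 rose in the acute arm of every line (2.85, 0.98, 1.66 and 0.57). GRHL2 fell in H1975 DTPs (-5.09, adjusted p = 0.00319), as FOXA2 did, and ID2 rose in DTPs of PC9, HCC827 and HCC2935 (3.31, 1.30 and 2.32). Of 8 airway genes, 3 of 4, 3 of 3, 2 of 3 and 2 of 5 were called in the acute arm and 6 of 6, 2 of 3, 0 of 3 and 4 of 5 in DTPs. SCGB3A2, a secretoglobin of club cells, rose in DTPs of PC9 (1.72) and HCC2935 (1.35) and fell in HCC827 (-1.45). Of 12 gut and liver endoderm genes 2 to 5 could be tested per line, and in DTPs 1 of 4, 1 of 5, 2 of 4 and 2 of 5 were called. CTSE fell in H1975 DTPs (-3.89, adjusted p = 0.000666).

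As a readout of the treatment itself, 10 of 10 proliferation genes fell in the acute arm and in DTPs of each line, and 6 to 8 of 8 ERK output genes fell in the acute arm. In DTPs ERK output genes were lower for 7, 2, 7 and 7 of 8 genes in PC9, HCC827, H1975 and HCC2935. Of all genes, 34.1%, 22.1%, 23.7% and 25.1% were lower in the acute arm and 35.9%, 17.2%, 23.4% and 27.2% in DTPs, in the same order. In long washout all 10 proliferation genes were still lower than under DMSO in HCC827 and H1975, 4 in PC9 and 5 in HCC2935. The shares of all genes that were lower there were 19.9% in HCC827, 28.2% in H1975, 14.7% in PC9 and 18.9% in HCC2935.

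Among the 5 listed genes that averaged 1 CPM or more (counts scaled to library size), levels were also compared over the 20 group means, each centred on its line's average of log2(CPM + 1). NKX2-1 and NAPSA had a Pearson r of 0.86, NKX2-1 and HOPX 0.73, FOXA1 and NAPSA 0.68, and NKX2-1 and FOXA1 0.47. The values pool the lines and do not hold for FOXA1 in each. In PC9 DTPs against DMSO FOXA1 fell (log2 fold change of -1.21) while NKX2-1 (2.17) and NAPSA (2.78) rose. FOXA2 stood apart, with r between -0.25 and 0.03 with the others. These are descriptions over 20 points that share lines, arms and libraries. Among all genes with at least 1 CPM, the patterns most like NKX2-1 were those of WSB1 (0.95), NR1H2 (0.91) and ZNF320 (0.90). Those most like FOXA1 were HOXB7 (0.94), SMARCE1 (0.93) and TDRD3 (0.91), though in H1975, where FOXA1 was near 0, r was -0.22, -0.35 and 0.31. FOXA2 was nearest to TGFA (0.98), IL1RAPL1 (0.95) and EREG (0.93), though in PC9, where FOXA2 was near 0, r was 0.11, -0.37 and -0.05. TGFA and EREG encode ligands of EGFR. HOPX was nearest to HIF1AN (0.96), MED23 (0.93) and ZNF776 (0.92), with ZNF776 at 0.29 in H1975. NAPSA was nearest to SOX2 (0.94), SECISBP2 (0.94) and ST6GALNAC1 (0.93). These were at 0.88 or more in HCC827 and HCC2935, but SOX2 was at 0.27 in PC9 and 0.09 in H1975, SECISBP2 at -0.46 in PC9 and ST6GALNAC1 at -0.39 in H1975.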

How the data were processed

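RNA-seq (poly(A) mRNA, paired-end) of 4 lines in 5 arms with 3 biological replicates gave 60 libraries. The submitters' processing notes name HISAT2 2.1.0, Salmon 0.8.2 and hg38; the counting annotation and strand setting are not given in the sources used here. The authors deposited estimated counts per gene and log2 TPM values (log2 of TPM plus 0.01, lowest value -6.64) for the same 19712 genes. Estimated counts were rounded, TPM was recovered from the log2 values, and 265 gene symbols had their hyphen restored. Depth was 17.7 to 49.1 M counts per library. The 10 genes and all other gene lists were chosen with earlier results of these data known.

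Genes were filtered with filterByExpr and tested with edgeR 4.0.16 (TMM, quasi-likelihood F-test, Benjamini-Hochberg over all tested genes, called at an adjusted p under 0.05) in R 4.3.3. Each within-line comparison used its own 6 libraries, DMSO levels between lines 12 libraries, and the interaction of line and treatment 24 libraries. SE is the log2 fold change divided by the root of F. Low counts were given as ratios with exact 95% intervals, which cover counting error only, or against a floor of 3 counts over the group. The floor stands in for a count of 0 and takes the other count as exact. Alternatives were DESeq2 1.42.0, RLE size factors, scaling by library size alone, testing without a filter, a stricter filter of 10 counts in each library, limma 3.58.1 on log2(TPM + 1) and on the deposited log2 TPM, a replicate block, 1 fit of all 60 libraries, an adjusted p under 0.01, and each library left out. The fits were tested on simulated data with 200 changed genes. All 10 genes were named in every comparison. Of each other list at most 4 genes were to be named, those called in the most of the 24 within-line comparisons, and for each listed gene with at least 1 CPM the 3 genes with the highest correlation. 1 gene that this rule names is not reported here. Same-numbered replicates deviated together (every r over 0.1) in 3 of 24 within-line comparisons, HCC2935 acute osimertinib against DMSO and short washout against DTPs in HCC827 and H1975, so the block was kept as an alternative. Coordinates came from GENCODE release 29 and promoter sequence from RefSeq. Python 3.11.15, pandas 2.3.3, scipy 1.17.1 and matplotlib 3.10.9 were used for tables and plots.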

Additional observations from a re-analysis of the deposited data

Results flagged for a closer look

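The response of several genes differed between the 4 lines by edgeR's interaction test with Benjamini-Hochberg adjustment. Under acute osimertinib these were HOPX (adjusted p = 0.00087), which rose in PC9, HCC827 and H1975 and had a log2 fold change of 0.20 in HCC2935, FOXA2 (adjusted p = 0.0234), which fell by 2.18 on the log2 scale in H1975 and by 0.96 in HCC2935, and FOXA1 (adjusted p = 0.0474). In DTPs against DMSO they were FOXA2 (adjusted p = 1.35e-08), with -6.92 in H1975 and -0.07 in HCC2935, NAPSA (adjusted p = 2.78e-08), with 2.78 in PC9 and -3.67 in HCC2935, NKX2-1 (adjusted p = 3.15e-07), with 2.17 in PC9 and -0.72 in HCC2935, HOPX (adjusted p = 9.04e-05), with 3.09 in PC9 and -0.47 in HCC2935, and FOXA1 (adjusted p = 0.000267), with -1.21 in PC9 and -0.26 in HCC827. In long washout against DTPs NKX2-1 differed (adjusted p = 0.0154), with -1.33 in PC9 and 0.09 in HCC827. Line and washout length cannot be told apart in that arm, and this call was lost under the replicate block (0.0545). The acute call of FOXA1 was lost, among other settings, under the replicate block (0.0822) and in 1 fit of all 60 libraries (0.231). Of the listed genes tested, 3 of 8 were called for acute osimertinib, against 40.5% of all genes. For DTPs 5 of 7 were called, against 61.6%, and for long washout against DTPs 1 of 8, against 7.34%.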

How the results depend on the processing

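Of 91 called results of the listed genes, 76 were called in every alternative at the same threshold, 74 with every library left out, 71 in both, and none was reversed. The replicate block kept 81. Causes of the changes below were not tested. Called results of the listed genes went from 16 to 8 (acute osimertinib), from 9 to 5 (long washout against DMSO), from 3 to 1 (lines differ, acute), from 2 to 0 (long washout against DTPs) and from 1 to 0 (lines differ, long washout) at an adjusted p under 0.01. For short washout the count went from 0 to 4 in DESeq2, and to 1 with library size only, without a filter, with at least 10 counts in every library and in 1 fit of all libraries, and leaving out 1 library gave 0 to 2 (2 without PC9 short-washout replicate 1). For long washout against DTPs the 2 calls became 4 in DESeq2, 1 in limma on the deposited values, 1 under the replicate block and 4 in 1 fit of all libraries, and 1 to 4 with 1 library left out (4 without PC9 long-washout replicate 3). Long washout against DMSO had 16 calls in 1 fit of all libraries and 7 to 10 with 1 library left out. With at least 10 counts in every library, fewer genes were tested and calls fell from 30 to 17 (DMSO levels), 3 to 1 (lines differ, acute) and 5 to 2 (lines differ, DTPs). With 1 library left out these were 25 to 34, 2 to 5 and 5 to 6. For lines differing in long washout, 1 call became 2 in DESeq2, 0 under the replicate block, 3 in 1 fit of all libraries and 1 to 3 with 1 library left out.

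Over all genes, an adjusted p under 0.01 left 10549 of 19887 calls (DTPs against acute), 1329 of 3724 (short washout), 9 of 3243 (long washout against DTPs), 13952 of 23519 (long washout against DMSO), 4171 of 6472 (lines differ, acute) and 8 of 1185 (lines differ, long washout). For acute osimertinib against DMSO it left 19994 of 28698 calls. Short washout had 1180 calls in 1 fit of all libraries and 2288 to 4000 with 1 library left out. Long washout against DTPs had 5962 in DESeq2, 6475 in 1 fit of all libraries and 747 to 7562 with 1 library left out, the highest without PC9 long-washout replicate 3 and the lowest without replicate 1 or any PC9 DTP library. Lines differing in long washout had 2552 in DESeq2, 481 in limma on the deposited values, 0 under the replicate block, 2521 in 1 fit of all libraries and 71 to 3287 with 1 library left out (71 without PC9 long-washout replicate 2, 3287 without replicate 3). Low counts limit the tests of SFTPA1, SFTPC, AQP5 and SFTPD outside PC9 most, since few libraries held 10 counts. The part of depth in these low counts was not tested.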

Other observations

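Some other alveolar genes, chosen after their values were seen, had large changes in DTPs. SFTA2, a secreted surfactant-associated protein, was at 291, 222 and 282 TPM in HCC827 under DMSO and at 71.1, 29.5 and 28.8 TPM in DTPs (log2 fold change of -2.67, SE 0.32, edgeR adjusted p = 0.000476). In HCC2935 it went from 634, 667 and 605 TPM to 50.9, 56.9 and 53.1 TPM (-3.74, SE 0.10, adjusted p = 2.99e-07). These are the lines in which NAPSA was also lower. SFTA3, a neighbour of NKX2-1, was higher in the acute arm of HCC827, H1975 and HCC2935, by 1.00, 1.57 and 1.18, and in DTPs changed by 0.91, 0.81 and -1.40 (log2, edgeR adjusted p = 0.0196, 0.0231 and 8.44e-05).

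CLIC5, a type 1 cell gene, went from 0.184, 0.469 and 0.187 TPM under DMSO to 17.9, 19.6 and 19 TPM in PC9 DTPs (log2 fold change of 5.74, SE 0.26, edgeR adjusted p = 7.59e-08), and from 2.74 to 37.2 TPM on average in HCC2935 (3.58, SE 0.20, adjusted p = 2.92e-06).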
